A study of Mus musculus with 6 samples.

Results

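The transcripts described here encode 10 components of the TGF-β pathway, which were chosen by function as a ligand, receptors, SMAD proteins and feedback genes of the signal that drives induced Treg culture. All 10 are among the 56748 genes of the deposited count table. RNA-seq was performed on 6 bulk libraries of unsorted wild-type murine CD4 cells, which were started as naïve helper T cells from spleen and lymph nodes of C57BL/6 mice aged 6 to 10 weeks. Of these, 3 libraries were labelled scrambled ASO and 3 *Pgam* ASO, and the paper calls them biological replicates. The labels do not say whether each came from a separate animal, so p-values measure only the spread between these libraries. The comparison asks how transcript levels differ when the glycolytic enzyme PGAM is targeted during Treg polarization.

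An ASO is a modified oligonucleotide complementary to its RNA target. These were added to the medium at 10 μM from the first day, the *Pgam* ASO being directed at *Pgam* transcripts and the scrambled ASO serving as its control. All cultures otherwise shared the same treatment for 3 days, with 1 ng/mL human TGF-β, 10 ng/mL murine IL-2, 5 μg/mL each of antibodies to IFNγ and IL-4, and 2 μg/mL each of antibodies to CD3 and CD28. Exogenous TGF-β was thus present in both groups. Sequencing depth, as the sum of counts, was 17588755, 18032805 and 16231127 for scrambled ASO and 16589933, 15860476 and 16803881 for *Pgam* ASO, here and below with replicates 1, 2 and 3 in that order. By a chi-square over its degrees of freedom across genes, replicate 3 labelled scrambled ASO differed less from replicate 3 labelled *Pgam* ASO (17.0) than from replicate 2 of its own label (27.1), and replicate 3 labelled *Pgam* ASO differed more from replicate 1 of its own label (20.2) than from that library. Values without each library are therefore given where they change a result.

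TGF-β is secreted in a latent complex and, once released, binds a type II receptor kinase that activates a type I receptor kinase. The type I receptor phosphorylates the receptor-regulated SMADs, which join the common mediator SMAD4 and act on transcription in the nucleus, while inhibitory SMAD7 and the co-repressors SKI and SKIL restrain the signal. In naïve CD4 cells that are activated in the presence of IL-2, this pathway induces *Foxp3*, the transcription factor that defines Tregs.

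Expression of the targeted genes was examined first, since it checks the labels. Values are CPM after scaling by the trimmed mean of M-values, and where 3 values stand against 3, those labelled scrambled ASO come first. *Pgam1* was at 600, 478 and 707 against 658, 661 and 707 CPM. *Pgam2*, the muscle form of the enzyme, was at 5.23, 6.75 and 2.85 against 2.98, 2.69 and 2.60 CPM. The groups overlapped for both genes. By the quasi-likelihood test of edgeR, adjusted after Benjamini-Hochberg, log2 fold changes (*Pgam* ASO label over scrambled) were 0.18 for *Pgam1* (standard error, SE, 0.126, adjusted p = 0.331) and -0.84 for *Pgam2* (SE 0.313, adjusted p = 0.0854). Thus 0 of these 2 genes had an adjusted p under 0.05 with edgeR, DESeq2 or limma-voom, while 1 of the 2, *Pgam2*, had an unadjusted p under 0.05 with edgeR. Without replicate 3 labelled scrambled ASO, edgeR's adjusted p for *Pgam2* was 0.0144, with a log2 fold change of -1.11, and with no filter on low counts it was 0.0292. Without replicate 2 labelled scrambled ASO the log2 fold change of *Pgam2* was -0.56 (edgeR adjusted p = 0.286) and that of *Pgam1* was 0.05 (adjusted p = 0.793), while without replicate 3 labelled scrambled ASO *Pgam1* was at 0.33 (adjusted p = 0.0528). Of the 31-base stretches in *Pgam1*, 37.1% recur in the pseudogene *Pgam1-ps2*, so its counts are uncertain to that extent. Groups are therefore named by their labels throughout, and every direction given is between labels. PGAM protein was not analysed here.

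*Foxp3* was at 282, 371 and 222 against 89.7, 109 and 131 CPM. Every library labelled *Pgam* ASO lay below every library labelled scrambled ASO. By the same edgeR test with Benjamini-Hochberg adjustment, expression fell by 1.41 on the log2 scale (SE 0.201, adjusted p = 0.00567). Of the 31-base stretches in its transcripts, 26.4% also occur in those of other genes, mostly antisense *Flicr*. In bulk RNA from unsorted cells, fewer cells that express a gene and less of its RNA per cell cannot be told apart, here and for each gene that follows.

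Of the 10 TGF-β pathway genes, all passed the filter on low counts, and 5 passed an adjusted p of 0.05 by the quasi-likelihood test of edgeR (Benjamini-Hochberg). The share over all 14936 tested genes was 17.2%. With the *Pgam* ASO label, expression was higher for 1 of the 10, *Tgfbr3*, where 8.03% of all tested genes were higher, and lower for 4, *Tgfbr1*, *Tgfbr2*, *Smad4* and *Smad7*, where 9.15% of all tested genes were lower. For 8 of the 10 there was no overlap between labels, 3 higher and 5 lower, against 39.5% of all tested genes. The median log2 fold change was -0.20 over the 10 genes and -0.0061 over all tested genes. The number of the 10 that passed changed with single libraries left out. It was 1 without replicate 1 labelled scrambled ASO, 2 without replicate 2 labelled scrambled ASO, and 2 without replicate 1 or replicate 2 labelled *Pgam* ASO. It was 5 without replicate 3 of either label, but without that labelled *Pgam* ASO *Tgfb1* gained the call and *Smad4* lost it. Of all tested genes, 2565 passed with all 6 libraries. With replicate 1, 2 or 3 left out in turn, 620, 1256 and 3484 passed for scrambled ASO and 871, 391 and 3319 for *Pgam* ASO. Adjusted p-values in the following paragraphs are from the same edgeR test.

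**Figure D1:**
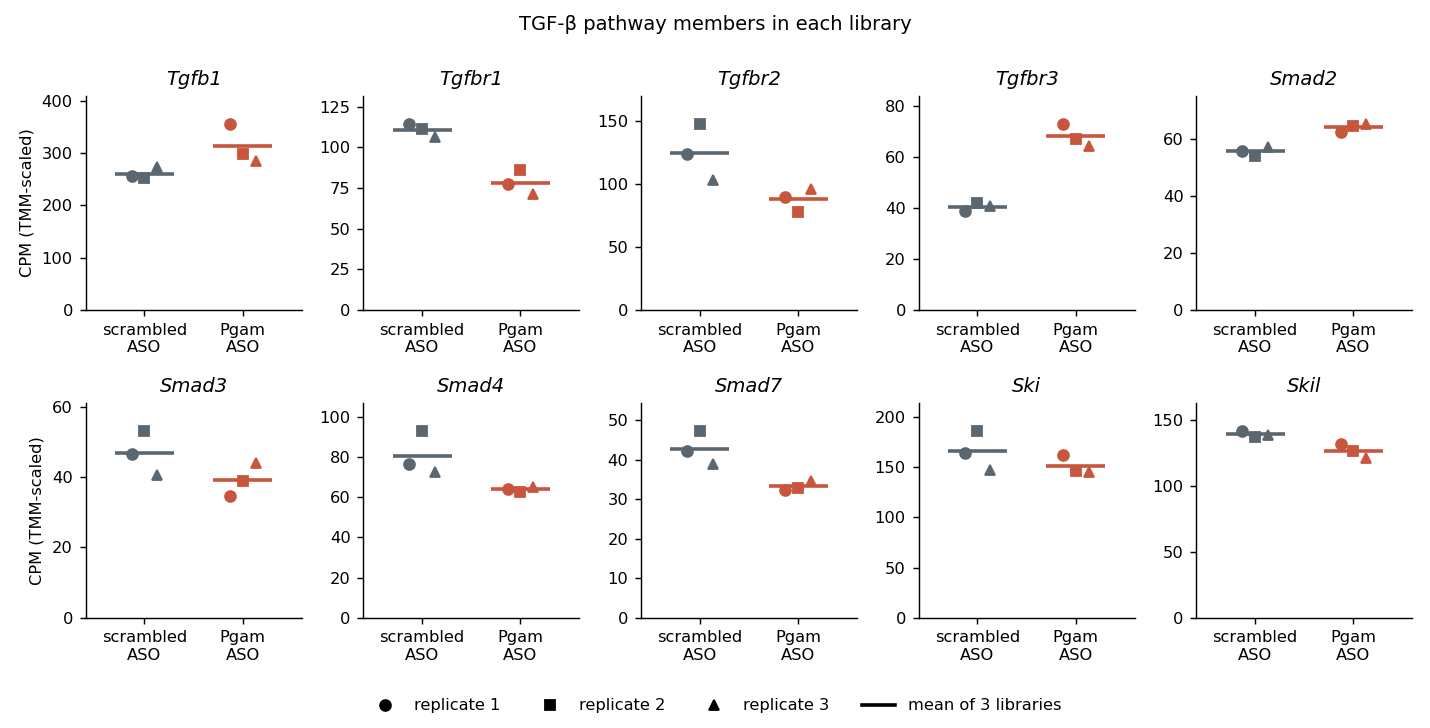
Expression of the 10 genes in each library, as CPM on axes that start at 0, with a symbol for each replicate and a line at the mean of 3 libraries. *Tgfbr3* stood above its scrambled ASO values in all 3 libraries labelled *Pgam* ASO, *Tgfbr1*, *Tgfbr2*, *Smad4* and *Smad7* stood below, and the groups overlapped for *Smad3* and *Ski*.

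Levels between genes were compared as CPM per kilobase of mean transcript length, a scale that allows for longer transcripts giving more reads. In the libraries labelled scrambled ASO, the ligand *Tgfb1* was the most abundant of the 10 at 211 ± 9.38 CPM per kilobase (SD, n = 3). It was followed by *Smad4* at 60.5 ± 8.04 and *Tgfbr1* at 44.2 ± 1.64 CPM per kilobase (SD, n = 3), and the libraries of these 3 genes did not overlap on this scale. *Skil*, *Smad3* and *Ski* came next at 34.0 ± 0.544, 32.8 ± 4.34 and 32.4 ± 3.79 CPM per kilobase (SD, n = 3), differing by less than their spread. *Smad7*, *Smad2* and *Tgfbr2*, at 26.4 ± 2.57, 24.8 ± 0.723 and 21.6 ± 3.85 CPM per kilobase (SD, n = 3), also had overlapping libraries. *Tgfbr3* was lowest at 14.7 ± 0.597 CPM per kilobase (SD, n = 3), below *Tgfbr2* in every library labelled scrambled ASO.

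In the libraries labelled *Pgam* ASO, *Tgfb1* was again first at 253 ± 30.7 CPM per kilobase and *Smad4* second at 47.9 ± 0.811 CPM per kilobase (SD, n = 3). *Tgfbr1*, *Skil*, *Ski*, *Smad2* and *Smad3* followed within a narrow range of per-kilobase levels, from 31.2 ± 2.97 for *Tgfbr1* down to 27.5 ± 3.24 for *Smad3* (SD, n = 3). *Tgfbr3* stood at 24.8 ± 1.61, *Smad7* at 20.5 ± 0.754 and *Tgfbr2*, the lowest on this scale, at 15.2 ± 1.59 CPM per kilobase (SD, n = 3). The order below *Tgfb1* depends on the length used. By means per kilobase of the longest transcript, *Tgfb1* was first and *Ski* second under both labels. Under scrambled ASO *Tgfbr3* had the lowest mean, 6.65, close to *Smad2* at 6.87 CPM per kilobase. Under *Pgam* ASO the lowest genes on that scale were *Smad3*, *Smad7* and *Smad2* at means of 7.70, 7.79 and 7.92 CPM per kilobase, while *Tgfbr2* was at 10.8.

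*Tgfb1* (ENSMUSG00000002603), on chromosome 7 from 25687002 to 25705077 in GRCm38, encodes the TGF-β isoform that lymphocytes mainly make. It was at 257, 252 and 274 against 356, 298 and 285 CPM. All values labelled *Pgam* ASO were above all values labelled scrambled ASO, with replicate 1 the highest and a gap of 10.7 CPM between the nearest libraries of the labels. The log2 fold change was 0.26 (95% interval 0.04 to 0.48, SE 0.0986, adjusted p = 0.0885), which missed the threshold of 0.05. It passed without replicate 3 labelled *Pgam* ASO (log2 fold change 0.33, adjusted p = 0.0489) and with no filter on low counts (adjusted p = 0.046), but was at 0.16 (adjusted p = 0.30) without replicate 1 labelled *Pgam* ASO, and without the other libraries its adjusted p ran from 0.073 to 0.241.

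*Tgfbr2* (ENSMUSG00000032440), on chromosome 9 from 116084293 to 116175360, encodes the type II receptor that binds the ligand. It was at 123, 148 and 103 against 89.8, 77.6 and 95.6 CPM. The groups did not overlap, but replicate 3 of each label came close, with a gap of 7.54 CPM. Expression fell by 0.51 on the log2 scale (SE 0.131, adjusted p = 0.0291), with a 95% interval from -0.80 to -0.22. This call did not hold without replicate 1 or replicate 2 labelled scrambled ASO (adjusted p = 0.0874 and 0.064) or without replicate 1 or replicate 2 labelled *Pgam* ASO (adjusted p = 0.0754 and 0.137), nor with a replicate block (adjusted p = 0.0738).

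*Tgfbr1* (ENSMUSG00000007613), on chromosome 4 from 47353222 to 47414931, encodes the type I receptor kinase that phosphorylates SMAD2 and SMAD3. It was at 115, 111 and 106 against 77.3, 86.1 and 71.3 CPM. The libraries within a label lay close together, and the gap between the nearest libraries of the labels was 20.3 CPM. Expression fell by 0.50 on the log2 scale (SE 0.0908, adjusted p = 0.00867), with a 95% interval from -0.70 to -0.30. Without replicate 1 labelled scrambled ASO the adjusted p was 0.0503, at a log2 fold change of -0.48, and without any other library it ran from 0.00848 to 0.0316.

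*Tgfbr3* (ENSMUSG00000029287), on chromosome 5 from 107106570 to 107289629, encodes betaglycan, a co-receptor without kinase activity that presents TGF-β to the type II receptor and whose shed ectodomain can sequester the ligand. It was counted 687, 775 and 660 times against 1175, 1045 and 1087 times, which is 38.7, 41.9 and 40.9 against 73.0, 67.0 and 64.3 CPM. All 3 libraries labelled *Pgam* ASO were well above the others, with a gap of 22.5 CPM. It had the largest absolute log2 fold change of the 10 genes, 0.75 (SE 0.0896, adjusted p = 0.00137), a rise of 68.3% with a 95% interval of 0.55 to 0.95 on the log2 scale. It was the 1 gene of the 10 that passed with each library left out in turn, at log2 fold changes from 0.70 to 0.80 and adjusted p-values from 0.00122 to 0.0158.

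**Figure D2:**
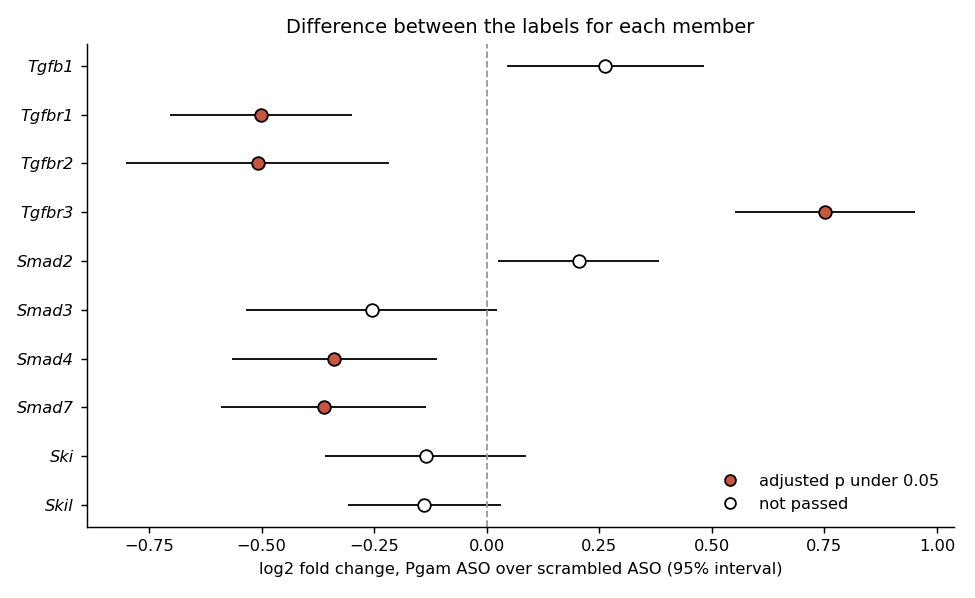
Log2 fold change of each gene, libraries labelled *Pgam* ASO over those labelled scrambled ASO, with its 95% interval. Filled points have an adjusted p under 0.05: *Tgfbr3* at 0.75, and *Tgfbr1*, *Tgfbr2*, *Smad4* and *Smad7* between -0.51 and -0.34.

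The receptors therefore moved in opposite directions, and their ratios were computed within each library on the per-kilobase scale. The level of *Tgfbr3* relative to *Tgfbr2* was 0.660, 0.597 and 0.835 against 1.71, 1.82 and 1.42. The groups did not overlap. With longest transcripts, a length chosen for ratios after seeing the data, the values were 0.417, 0.377 and 0.527 against 1.08, 1.149 and 0.895, again without overlap, so on which side of 1 the ratio of replicate 3 labelled *Pgam* ASO lay depended on the length. The per-kilobase ratio of *Tgfbr3* to *Tgfbr1* was 0.334 ± 0.0229 against 0.798 ± 0.0783 (SD, n = 3), also without overlap. In contrast, the per-kilobase ratio of *Tgfbr1* to *Tgfbr2* was 2.09 ± 0.325 and 2.09 ± 0.429 (SD, n = 3), and the groups overlapped. These ratios combine genes that were tested one by one and were not themselves tested. *Tgfbr3* was higher and *Tgfbr1* and *Tgfbr2* were lower, each without overlap. Ratios of *Tgfbr3* to either therefore had to separate the labels at any transcript length, and their separation adds no further result.

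**Figure D3:**
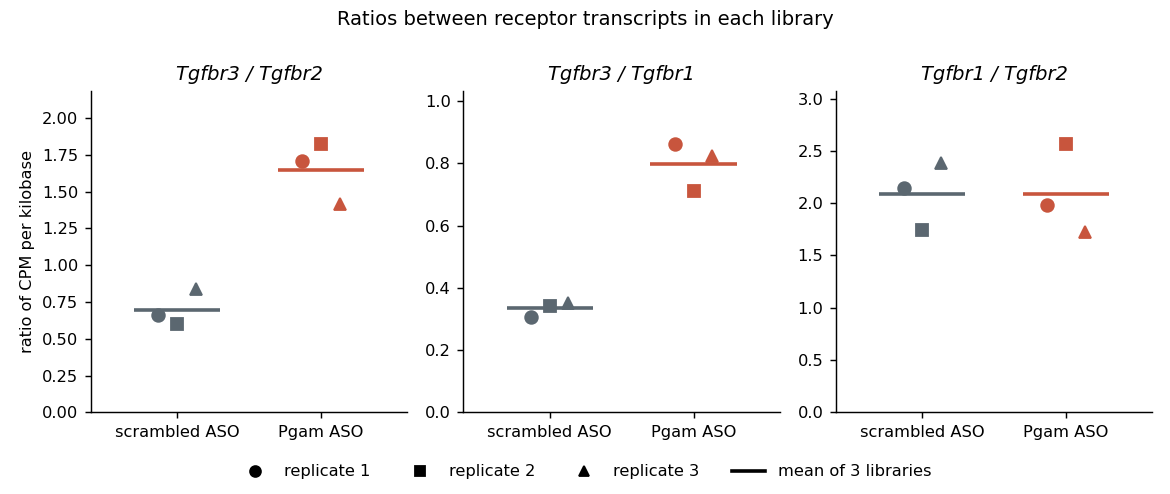
Ratios between receptor transcripts as CPM per kilobase in each library, with symbols for replicates and lines at the mean of 3 libraries. *Tgfbr3* over *Tgfbr2* lay between 0.597 and 0.835 in libraries labelled scrambled ASO and between 1.42 and 1.82 in those labelled *Pgam* ASO, while *Tgfbr1* over *Tgfbr2* overlapped.

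Promoter sequences are shown for *Tgfbr1* and *Tgfbr2*, the receptor kinases whose transcripts both fell. RefSeq promoters on GRCm38.p6, each from 250 bases before to 50 bases after the start, were used for 5 of the 10 genes, *Tgfb1*, *Tgfbr1*, *Tgfbr2*, *Smad3* and *Ski*. None was found for *Tgfbr3* and *Skil*. Those of *Smad2*, *Smad4* and *Smad7* were left out and not searched. The motif counts below therefore do not cover these genes, and whether their promoters hold the motifs was not tested. The *Tgfbr1* window lies on the plus strand at chr4:47352972-47353271, the first of 2 starts listed, and that of *Tgfbr2* on the minus strand at chr9:116175314-116175613. Capitals mark the SMAD-binding box CAGAC on either strand.
Tgfbr1: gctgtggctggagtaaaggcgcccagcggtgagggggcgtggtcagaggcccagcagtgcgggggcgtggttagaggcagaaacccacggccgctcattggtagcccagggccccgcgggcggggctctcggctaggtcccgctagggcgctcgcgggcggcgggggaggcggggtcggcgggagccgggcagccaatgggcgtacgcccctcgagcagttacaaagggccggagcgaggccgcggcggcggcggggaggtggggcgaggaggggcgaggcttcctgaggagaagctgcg
Tgfbr2: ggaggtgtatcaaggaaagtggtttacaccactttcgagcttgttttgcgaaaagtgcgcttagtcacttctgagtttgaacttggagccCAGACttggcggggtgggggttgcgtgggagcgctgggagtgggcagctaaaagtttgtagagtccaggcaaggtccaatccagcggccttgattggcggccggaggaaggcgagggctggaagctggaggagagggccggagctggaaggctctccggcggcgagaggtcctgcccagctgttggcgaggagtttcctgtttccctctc
The box was found 1 time in the *Tgfbr2* window and 0 times in the windows of the other 4 genes, and 49.6% of 32851 promoters of the same length hold it. The forkhead motif TGTTTAC, present in 3.65% of those promoters, and the AP-1 motif TGANTCA, present in 7.81%, were searched on both strands and found 0 times in the 5 windows. The motifs were chosen after the expression values were seen, and a match describes letters, not binding. GC content was 74.7% in the *Tgfbr1* window and 59.0% in the *Tgfbr2* window, against a median of 52.7% over the promoters.

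Receptor-regulated SMADs carry the signal from the receptors to the nucleus. *Smad2* (ENSMUSG00000024563), on chromosome 18 from 76241580 to 76310963, was at 55.6, 54.0 and 57.2 against 62.4, 64.5 and 65.3 CPM. The groups did not overlap, and the libraries of each label lay within a few CPM of each other. The log2 fold change of 0.20 (95% interval 0.03 to 0.38, SE 0.0802, adjusted p = 0.0999) missed the threshold. *Smad3* (ENSMUSG00000032402), on chromosome 9 from 63646767 to 63757994, was at 46.5, 53.1 and 40.7 against 34.7, 38.9 and 44.0 CPM. Here the groups overlapped, since replicate 3 labelled *Pgam* ASO lay above replicate 3 labelled scrambled ASO, and the log2 fold change was -0.26 (SE 0.125, adjusted p = 0.174). It was -0.16 (adjusted p = 0.458) without replicate 2 labelled scrambled ASO and -0.34 (adjusted p = 0.0727) without replicate 3 labelled scrambled ASO. The ratio of *Smad2* to *Smad3* on the per-kilobase scale was 0.769 ± 0.124 in libraries labelled scrambled ASO and 1.05 ± 0.0996 in those labelled *Pgam* ASO (SD, n = 3). Its values did not overlap between the labels, with 0.896 the highest under scrambled ASO and 0.947 the lowest under *Pgam* ASO, and the ratio was not tested.

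*Smad4* (ENSMUSG00000024515), on chromosome 18 from 73639009 to 73703780, encodes the common partner that all activated receptor-regulated SMADs bind. It was at 76.8, 93.0 and 72.7 against 64.1, 62.8 and 65.0 CPM. The libraries labelled *Pgam* ASO were nearly equal and lay below the others, of which replicate 2 was the highest. Expression fell by 0.34 on the log2 scale (SE 0.102, adjusted p = 0.0472), close to the threshold, with a 95% interval from -0.57 to -0.11. The call held without replicate 3 labelled scrambled ASO (adjusted p = 0.0227) and was lost without any other single library, with adjusted p-values of 0.103 and 0.129 without replicates 1 and 2 labelled scrambled ASO and 0.12, 0.166 and 0.0632 without replicates 1, 2 and 3 labelled *Pgam* ASO. With limma-voom the adjusted p was 0.055, and with a replicate block in edgeR 0.0963.

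*Smad7* (ENSMUSG00000025880), on chromosome 18 from 75367529 to 75395935, encodes the inhibitory SMAD that TGF-β itself induces and that recruits ubiquitin ligases to the type I receptor. It was at 42.2, 47.3 and 39.0 against 32.3, 33.0 and 34.7 CPM. The groups did not overlap, and the spread was larger under scrambled ASO (SD 4.18 CPM) than under *Pgam* ASO (SD 1.22 CPM). Expression fell by 0.36 on the log2 scale (SE 0.102, adjusted p = 0.0381), with a 95% interval from -0.59 to -0.14. The call was lost without replicate 1 or replicate 2 labelled scrambled ASO (adjusted p = 0.109 and 0.113) and without replicate 1 or replicate 2 labelled *Pgam* ASO (adjusted p = 0.118 and 0.141), and with a replicate block (adjusted p = 0.0872).

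SKI and SKIL (also SnoN) bind SMAD complexes and recruit histone deacetylases to repress their target genes. *Ski* (ENSMUSG00000029050), on chromosome 4 from 155154075 to 155222592, was at 164, 186 and 147 against 162, 146 and 145 CPM. The groups overlapped, and the log2 fold change was -0.14 (95% interval -0.36 to 0.09, SE 0.10, adjusted p = 0.368). It was -0.05 without replicate 2 labelled scrambled ASO and -0.21 without replicate 3 labelled scrambled ASO (adjusted p = 0.802 and 0.15). *Skil* (ENSMUSG00000027660), on chromosome 3 from 31095058 to 31122577, is itself a transcriptional target of the pathway and was at 142, 137 and 139 against 132, 126 and 122 CPM. The groups did not overlap, with a gap of 5.67 CPM, but the log2 fold change of -0.14 (95% interval -0.31 to 0.03, SE 0.0762, adjusted p = 0.225) did not pass. For *Ski* and *Skil*, the lower interval bounds of -0.36 and -0.31 limit how large a fall these libraries leave room for.

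**Figure D4:**
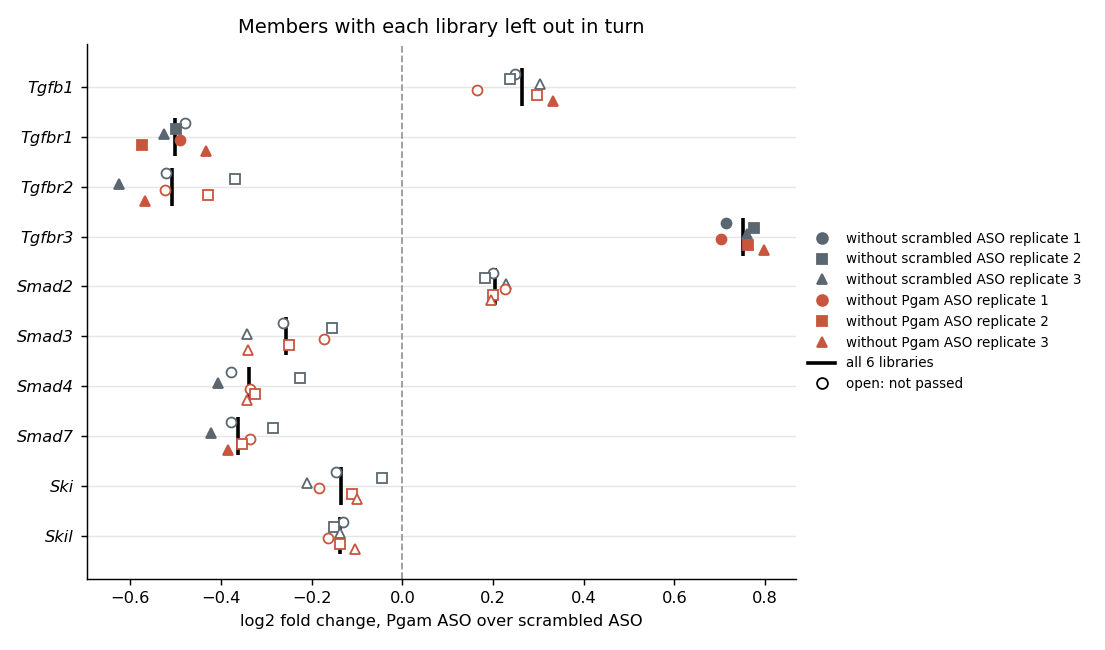
Log2 fold change of each gene with each library left out in turn, with a bar at the value from all 6 libraries; filled symbols have an adjusted p under 0.05. All symbols of *Tgfbr3* are filled, between 0.70 and 0.80. Those of *Tgfbr1*, *Tgfbr2*, *Smad4* and *Smad7* are partly open, 1 symbol of *Tgfb1* is filled, and no gene changes sign.

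As a description, genes whose log2 CPM followed *Tgfbr3* or *Tgfbr2* most closely over the 6 libraries were taken from 9125 genes with a mean of at least 10 CPM. The 3 nearest to *Tgfbr3* were *Ptges3-ps* (Pearson r = 0.997), *Chd7*, a chromatin remodeller (r = 0.991), and *Hipk2*, a nuclear kinase (r = 0.991). All 31-base stretches of *Ptges3-ps* are shared with *Ptges3*, so its counts cannot be told apart from those of that gene. The 3 nearest to *Tgfbr2* were *Limk2*, a kinase of actin regulation (r = 0.997), *Tmem198b* (r = 0.997) and *Arap2* (r = 0.993). Of the 31-base stretches of *Tmem198b*, 25.9% are shared, mainly with *Mmp19*, so its counts are uncertain. The points share the difference between the labels, and r takes no account of size: *Limk2* had a log2 fold change of -0.09.

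The other genes of the pathway were taken from 9 lists by role, with 130 genes in all, of which 118 were tested. Of the 118, 15 were higher and 13 lower in the libraries labelled *Pgam* ASO with an adjusted p under 0.05, or 23.7%, where the share over all tested genes was 17.2%. Their median log2 fold change was -0.03, against -0.0061 over all tested genes. The count was 9 without replicate 1 labelled scrambled ASO, 17 without replicate 1 labelled *Pgam* ASO and 6 without replicate 2 labelled *Pgam* ASO. Over all tested genes, 620, 871 and 391 passed in these fits, against 2565 with all 6 libraries. The 12 genes below the filter were *Bmpr1b*, *Cdkn2b*, *Foxh1*, *Gzma*, *Inhbb*, *Itgb6*, *Ltbp1*, *Mecom*, *Smad6*, *Smad9*, *Tgfb2* and *Tgfbi*.

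**Figure D5:**
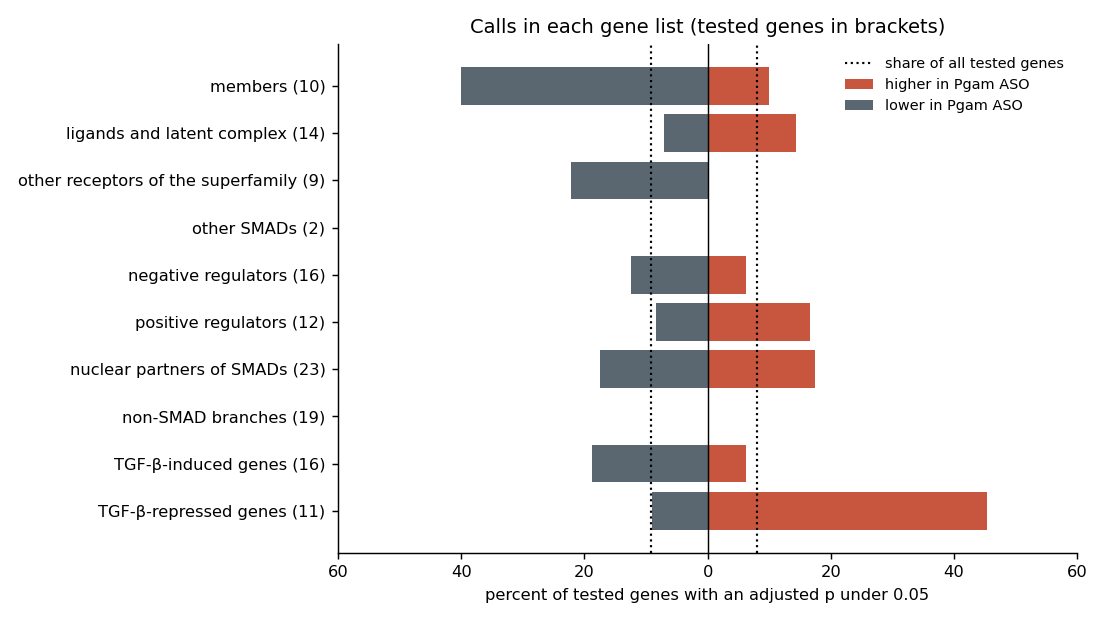
Percent of the tested genes in each list that were higher (right) or lower (left) in the libraries labelled *Pgam* ASO with an adjusted p under 0.05; dotted lines mark the shares over all tested genes, 8.03% and 9.15%. The 10 members had 1 higher and 4 lower, and the genes known as repressed by TGF-β had 5 higher and 1 lower of 11.

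Among 14 tested ligands and genes of the latent complex, 2 were higher and 1 lower. That was 21.4%, against 17.2% of all tested genes, and the median log2 fold change was 0.00095. *Itgb8*, the integrin subunit that releases active TGF-β from its latent complex, was at 3.71, 2.48 and 2.79 against 1.18, 0.898 and 0.651 CPM. Its log2 fold change was -1.71 (SE 0.336, adjusted p = 0.0117), at a low level in both groups. *Nrros*, which anchors latent TGF-β on the surface of myeloid cells, had a log2 fold change of 0.42 (adjusted p = 0.0219), and *Inha*, which encodes the inhibin alpha subunit, one of 1.40 (adjusted p = 0.0146). In these 3 genes the groups did not overlap, which the rule for naming genes required. None of the 3 passed without replicate 1 labelled scrambled ASO (adjusted p = 0.0594 for *Itgb8*, 0.0511 for *Nrros* and 0.0603 for *Inha*) or without replicate 2 labelled *Pgam* ASO (adjusted p = 0.0674, 0.101 and 0.0661). Without replicate 3 labelled *Pgam* ASO the list had 7 calls, 3 higher and 4 lower, and with no filter 6. The most abundant genes of the list that did not pass were *Itgb1*, with a log2 fold change of -0.05, and *Furin*, the convertase that cleaves the TGF-β precursor, with one of 0.05. Without replicate 3 labelled scrambled ASO *Itgb1* was at 0.03, and *Furin* was at -0.04 without replicate 2 labelled scrambled ASO and at -0.10 without replicate 1 labelled *Pgam* ASO.

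Of 9 other tested receptors of the superfamily, 0 were higher and 2 lower. That was 22.2%, against 17.2% of all tested genes, and the median log2 fold change was -0.40. *Acvr2a*, a type II activin receptor, was at 12.9, 13.8 and 10.7 against 6.77, 6.48 and 6.75 CPM, a log2 fold change of -0.91 (SE 0.161, adjusted p = 0.00813). *Bmpr2*, the type II receptor for bone morphogenetic proteins, was at 56.8, 55.2 and 51.4 against 39.3, 43.2 and 37.8 CPM, a log2 fold change of -0.44 (SE 0.0939, adjusted p = 0.0156). Both genes were lower in each of the 3 libraries labelled *Pgam* ASO than in any labelled scrambled ASO, as were *Tgfbr1* and *Tgfbr2*. For *Acvr2a* and *Bmpr2* the rule for naming genes required this lack of overlap. Without replicate 2 labelled *Pgam* ASO, neither passed (adjusted p = 0.0571 for *Acvr2a* and 0.0563 for *Bmpr2*), and *Bmpr2* did not pass without replicate 1 labelled scrambled ASO (adjusted p = 0.0759) or replicate 1 labelled *Pgam* ASO (adjusted p = 0.0554). The type I activin receptor *Acvr1b* had a log2 fold change of -0.25 (adjusted p = 0.387), and *Bmpr1a* one of -0.21 (adjusted p = 0.357). *Acvr1b* was at -0.49 (adjusted p = 0.0421) without replicate 3 labelled *Pgam* ASO, at -0.07 (adjusted p = 0.823) without replicate 1 labelled *Pgam* ASO and at -0.14 without replicate 2 labelled scrambled ASO. *Bmpr1a* was at -0.08 (adjusted p = 0.77) without replicate 1 labelled *Pgam* ASO and at -0.33 (adjusted p = 0.178) without replicate 2 labelled scrambled ASO. Without replicate 3 labelled *Pgam* ASO 4 receptors of the list passed, all lower.

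Of the other SMADs, *Smad1* and *Smad5*, which transmit signals of bone morphogenetic proteins, were tested, and 0 of the 2 passed with edgeR, DESeq2 or limma-voom. Of all tested genes, 17.2% passed with edgeR. *Smad5* was at 30.5, 41.5 and 27.8 against 26.0, 25.4 and 24.8 CPM, a log2 fold change of -0.39 with an adjusted p of 0.0884, and was the 1 gene of the list with an unadjusted p under 0.05. Its groups did not overlap, and its adjusted p was 0.0307 without replicate 3 labelled scrambled ASO and 0.0315 with no filter. Without replicate 2 labelled scrambled ASO its log2 fold change was -0.20 (adjusted p = 0.294). *Smad1* had a log2 fold change of -0.05 (adjusted p = 0.849), with overlapping groups, which was 0.01 without replicate 2 labelled scrambled ASO or replicate 1 labelled *Pgam* ASO.

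Of 16 negative regulators, 1 was higher and 2 were lower. That was 18.8%, against 17.2% of all tested genes, and the median log2 fold change was -0.09. *Tgif1*, a homeodomain co-repressor of SMADs, was at 27.7, 34.2 and 23.1 against 15.3, 14.2 and 12.7 CPM, a log2 fold change of -1.01 (SE 0.155, adjusted p = 0.00413), and passed with each library left out in turn (highest adjusted p = 0.0367). *Ldlrad4*, which keeps SMAD2 and SMAD3 from the receptor, had a log2 fold change of -1.01 (adjusted p = 0.0133). It shares 50.3% of its 31-base stretches with *Fam210a*, so its counts are uncertain, and it did not pass without replicate 1 labelled scrambled ASO (adjusted p = 0.0503) or replicate 2 labelled *Pgam* ASO (adjusted p = 0.0647). *Wwp1*, a ubiquitin ligase that acts with SMAD7 on the type I receptor, rose from 46.6, 44.2 and 49.9 CPM to 65.0, 67.0 and 55.8 CPM, or 0.42 on the log2 scale (adjusted p = 0.0233). That call was lost without replicate 1 or 2 of either label (adjusted p from 0.0541 to 0.118). *Fkbp1a*, which encodes a protein that binds the type I receptor, had a log2 fold change of 0.16 (adjusted p = 0.334) and *Usp9x* one of -0.08 (adjusted p = 0.507). With 1 library left out, *Fkbp1a* ran from 0.05 to 0.27 and *Usp9x* from -0.11 to -0.03, and neither passed. The list holds *Usp9x* although it encodes a deubiquitinase of SMAD4, a role that supports the signal. The list had 1 call without replicate 1 labelled scrambled ASO or replicate 2 labelled *Pgam* ASO, and 5, of which 3 were higher, without replicate 3 of either label.

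Of 12 positive regulators, 2 were higher and 1 was lower. That was 25%, against 17.2% of all tested genes, and the median log2 fold change was 0.14. *Rnf111*, the ubiquitin ligase Arkadia that targets SMAD7 and SKIL for degradation, was at 74.2, 83.2 and 59.7 against 44.2, 51.4 and 52.9 CPM, a log2 fold change of -0.55 (SE 0.127, adjusted p = 0.0212). *Dab2*, an adaptor between receptors and SMADs, had a log2 fold change of 1.24 (adjusted p = 0.0321) at a mean of 1.78 against 4.23 CPM. Both genes lost the call without single libraries. *Rnf111* did so without replicate 1 of either label or replicate 2 labelled *Pgam* ASO (adjusted p from 0.0734 to 0.0893), and *Dab2* without any library labelled scrambled ASO or replicate 2 labelled *Pgam* ASO (adjusted p from 0.0541 to 0.144). The list had no call with edgeR without replicate 1 labelled scrambled ASO or replicate 2 labelled *Pgam* ASO, and 1 without replicate 2 labelled scrambled ASO or replicate 1 labelled *Pgam* ASO. *Usp4*, a deubiquitinase of the type I receptor, did not pass at a log2 fold change of 0.13 (adjusted p = 0.325). Nor did *Trap1* (log2 fold change 0.15, adjusted p = 0.311), which the list holds although it encodes a mitochondrial chaperone and not the receptor-associated protein of that name, *Tgfbrap1*. With 1 library left out, *Usp4* ran from 0.07 to 0.19 and *Trap1* from 0.08 to 0.22.

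Of 23 tested nuclear partners of SMADs, 4 were higher and 4 lower. That was 34.8%, against 17.2% of all tested genes, and the median log2 fold change was 0.04. *Atf3*, a stress-induced factor that binds SMAD3, was at 8.27, 5.13 and 11.7 against 54.3, 37.4 and 27.4 CPM, a log2 fold change of 2.25 (SE 0.345, adjusted p = 0.00953). *Jun*, a component of AP-1, was at 65.9, 54.3 and 60.3 against 29.3, 34.0 and 30.1 CPM, a log2 fold change of -0.95 (SE 0.107, adjusted p = 0.00101). *Foxo1*, a forkhead factor that acts with SMADs, was at 167, 220 and 135 against 93.4, 94.3 and 105 CPM, a log2 fold change of -0.84 (SE 0.157, adjusted p = 0.0114). In each of these genes, the groups did not overlap, which the rule for naming genes required. *Tfdp1*, the dimer partner of E2F factors, had a log2 fold change of 0.50 (adjusted p = 0.0109) and shares 21.7% of its 31-base stretches with the pseudogene *Gm7390*. *Jun* passed with each library left out in turn, *Atf3* did not pass without replicate 1 labelled scrambled ASO (adjusted p = 0.0509), and *Foxo1* and *Tfdp1* did not without replicate 2 labelled *Pgam* ASO (adjusted p = 0.0681 and 0.073).

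Named after their values were seen, the remaining 4 nuclear partners that passed were *E2f4* and *Fos*, with log2 fold changes of 0.36 and 1.13 (adjusted p = 0.0399 and 0.0428), and *Foxo3* and *Crebbp*, with -0.44 and -0.47 (adjusted p = 0.0251 and 0.046). The groups of *Fos* overlapped. Each of the 4 lost its call without replicate 1 or 2 labelled scrambled ASO or replicate 2 labelled *Pgam* ASO (adjusted p from 0.0535 to 0.181), *E2f4*, *Foxo3* and *Crebbp* also without replicate 1 labelled *Pgam* ASO (adjusted p = 0.138, 0.0896 and 0.114), and *Fos* without replicate 3 of either label (adjusted p = 0.0884 for scrambled ASO and 0.0831 for *Pgam* ASO). *Fos* and *Crebbp* did not pass with limma-voom (adjusted p = 0.0602 and 0.0572) or with library size alone (adjusted p = 0.0527 and 0.0506). The co-repressor *Ncor1* and the AP-1 component *Junb* were the most abundant that did not pass, with log2 fold changes of -0.11 and 0.05 (adjusted p = 0.32 and 0.762), the latter at -0.04 without replicate 2 labelled scrambled ASO. In place of 8, the list had 3 and 4 calls without replicates 1 and 2 labelled scrambled ASO, and 5 and 2 without replicates 1 and 2 labelled *Pgam* ASO.

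The non-SMAD branches of the pathway run through kinases and small GTPases. Of 19 tested genes 0 passed with edgeR, against 17.2% of all tested genes. An unadjusted p under 0.05 was seen for 2, *Cdc42* and *Map2k3* (the latter named after its values were seen), 0 passed with limma-voom, and 1, *Map2k3*, passed with DESeq2. *Cdc42*, a GTPase of cell polarity, was at 466, 446 and 502 against 528, 567 and 534 CPM, a log2 fold change of 0.20 (adjusted p = 0.104) with no overlap between the groups. *Rhoa*, with 10.8% of its 31-base stretches found elsewhere too, had a log2 fold change of 0.04 (adjusted p = 0.716). With 1 library left out, *Rhoa* ran from 0.02 to 0.07. The median of the list was -0.0065, and 1 gene passed without replicate 3 labelled *Pgam* ASO and 1 with no filter.

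Genes known to be induced by TGF-β included 16 that were tested, of which 1 was higher and 3 were lower. That was 25%, against 17.2% of all tested genes, and the median log2 fold change was -0.15. The lower genes were *Foxp3* and *Ldlrad4*, described above, and *Nt5e*, which encodes the ectoenzyme CD73. *Nt5e* was at 195, 214 and 167 against 61.4, 72.8 and 92.3 CPM, a log2 fold change of -1.35 (SE 0.149, adjusted p = 0.00109), and passed with each library left out in turn. The gene that rose was *Id1*, an inhibitor of helix-loop-helix factors, at a log2 fold change of 0.72 (adjusted p = 0.0427), and that call was lost without replicate 1 or 2 of either label (adjusted p from 0.103 to 0.176). *Ctla4*, an inhibitory receptor of Tregs, was at 539, 662 and 577 against 477, 499 and 486 CPM. Its log2 fold change of -0.28 (adjusted p = 0.0575) missed the threshold with edgeR and passed with DESeq2 (adjusted p = 0.0427), library size alone (0.043) and no filter (0.0462). In place of 4, the list had 9 calls, 4 higher and 5 lower, without replicate 3 labelled scrambled ASO, 7 without replicate 3 labelled *Pgam* ASO, 8 with DESeq2 and 8 with no filter, but 2 without replicate 1 labelled scrambled ASO or replicate 2 labelled *Pgam* ASO.

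Genes known to be repressed by TGF-β included 11 that were tested, of which 5 were higher and 1 was lower. That was 54.5%, against 17.2% of all tested genes, and the median log2 fold change was 0.39. *Il2*, the T cell growth factor, was at 2.42, 0.864 and 1.30 against 30.5, 17.3 and 12.1 CPM, a log2 fold change of 3.70 (SE 0.455, adjusted p = 0.00335), although 15.0% of its 31-base stretches are shared, mainly with *Ntan1*. *Gata3*, the factor of Th2 cells, was at 47.5, 62.2 and 35.8 against 113, 82.9 and 75.2 CPM, a log2 fold change of 0.89 (SE 0.219, adjusted p = 0.0321). *Fasl*, a ligand of cell death, had a log2 fold change of 0.68 (adjusted p = 0.0257). The other genes that rose, named after their values were seen, were the cell cycle phosphatase *Cdc25a* (log2 fold change 0.61, adjusted p = 0.0138) and *Id2* (0.39, adjusted p = 0.0349). *Eomes*, a T-box factor of cytotoxic cells, went the other way at a log2 fold change of -0.82 (adjusted p = 0.0214). The groups did not overlap in any of these 6 genes, which the rule for naming genes required of *Il2*, *Gata3*, *Fasl* and *Eomes*.

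*Il2* was the 1 gene of these 6 that passed with each library left out in turn (highest adjusted p = 0.0219). *Gata3* and *Eomes* did not pass without replicate 1 of either label or replicate 2 labelled *Pgam* ASO (adjusted p from 0.0635 to 0.102 and from 0.053 to 0.0893), *Fasl* and *Id2* without replicate 1 or 2 of either label (adjusted p from 0.0633 to 0.108 and from 0.083 to 0.131), and *Cdc25a* without replicate 2 labelled *Pgam* ASO (adjusted p = 0.0754). *Myc* and *Gzmb* were the most abundant that did not pass, with log2 fold changes of -0.13 and -0.29 (adjusted p = 0.406 and 0.58), the latter at 0.04 without replicate 3 labelled scrambled ASO. With 1 library left out, *Myc* ran from -0.22 to -0.06. In place of 6, the list had 2 calls without replicate 1 of either label and 1 without replicate 2 labelled *Pgam* ASO.

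Markers of the cells in the cultures were examined beside these genes. Summed over 7 genes, markers of CD4 T cells were at 2806, 3019 and 2617 against 2273, 2275 and 2387 CPM in those labelled *Pgam* ASO, with *Cd4* the most abundant at a mean of 718 CPM. Of the 7, 0 were higher and 2 lower, *Cd28* with a log2 fold change of -0.66 (adjusted p = 0.00183) and *Cd5* with -0.49 (adjusted p = 0.0193), named after their values were seen, the latter not passing without replicate 1 labelled scrambled ASO (adjusted p = 0.0678) or replicate 2 labelled *Pgam* ASO (adjusted p = 0.106). *Cd3d*, *Cd3e*, *Cd3g* and *Cd4* did not pass, though their groups did not overlap, and *Lck*, at a log2 fold change of 0.07 (adjusted p = 0.564), overlapped. Over all tested genes, 17.2% passed and 39.5% had no overlap. The summed level was thus lower in each library labelled *Pgam* ASO, and its part in the lower values of *Tgfbr1*, *Tgfbr2*, *Smad4* and *Smad7* was not tested.

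Markers of CD8 T cells summed over 2 genes to 11.3, 13.5 and 10.8 against 14.6, 10.9 and 15.7 CPM, with *Cd8b1* the most abundant at a mean of 8.67 CPM. Of these, *Cd8a*, also named after its values were seen, was higher, at 2.48, 3.08 and 2.23 against 7.02, 3.66 and 6.27 CPM (log2 fold change 1.12, adjusted p = 0.0286), but not without replicate 1 of either label (adjusted p = 0.0989 for scrambled ASO and 0.100 for *Pgam* ASO). *Cd8b1* overlapped, with a log2 fold change of -0.20 (adjusted p = 0.454). B cell markers summed to between 6.63 and 11.6 CPM, with *Cd79a* leading at a mean of 2.94 CPM. Sums of the other lists ranged from 2.04 to 3.56 CPM for myeloid cells, led by *Lyz2*, from 0.124 to 0.594 CPM for NK cells, with *Klrb1c* and *Klra8* at 0 counts, and from 2.67 to 5.13 CPM for platelets, led by *Itga2b*, with *Gp1bb* at 0 counts. They ranged up to 2.76 CPM for erythroid cells, led by *Alas2*. Sums for stromal cells, led by *Col1a1*, were at 1.35, 1.94 and 1.73 against 0.435, 0.706 and 1.18 CPM. Markers of mast cells and basophils, led by *Cpa3*, summed to 1.07, 1.89 and 1.36 CPM in libraries labelled scrambled ASO and to 4.10, 3.98 and 2.96 CPM. Of these 7 lists, from B cells to mast cells, 0 genes passed with edgeR, though many were below its filter. Among B cell markers 2 had an unadjusted p under 0.05, 2 passed with DESeq2 and 0 with limma-voom; for mast cells and basophils the counts were 1, 0 and 1, and for the other 5 lists 0 by each. Any part of such cells in the results was not tested.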

How the data were processed

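The table deposited by the authors holds estimated counts for Ensembl genes, which kallisto made against GRCm38, rounded and not normalized. Their paper was used for the culture conditions. The 10 genes and all lists were chosen with earlier results of these data known. Coordinates and transcript lengths came from GENCODE M21, and promoters from RefSeq on GRCm38.p6.

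In R 4.3.3, edgeR 4.0.16 kept 14936 genes by filterByExpr, scaled libraries by the trimmed mean of M-values, and compared the groups of 3 with its robust two-sided quasi-likelihood test, adjusting p after Benjamini-Hochberg over all tested genes and a threshold of 0.05. The common biological coefficient of variation was 13.8%. Summaries used Python 3.11.15 and pandas 2.3.3. The procedure was tested on simulated data, first with gene-wise dispersions, where more of the calls were false than the threshold allows with edgeR, DESeq2 and limma-voom alike. Trended dispersions were added after that outcome was seen, and with them the false share was under the threshold for edgeR and above it for DESeq2 and limma-voom. All calls given here are uncertain to that extent, not only those near the threshold.

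Genes named were the 10, *Pgam1*, *Pgam2* and *Foxp3*, and, in each of 9 lists of other pathway genes, up to 4 with the largest absolute log2 fold change among those that passed with a mean of at least 1 CPM and no overlap, and up to 2 most abundant that did not pass. Not every gene of the lists is reported on its own. The 9 marker lists covered CD4 T, CD8 T, B, myeloid and NK cells, platelets, erythroid cells, mast cells and basophils, and stromal cells. Genes whose profiles over the libraries were most like a member were found by Pearson r of log2 CPM.

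Alternatives were RLE factors, library size alone, DESeq2 1.42.0, limma-voom (limma 3.58.1), no filter, at least 10 counts in every library, ribosomal protein and mitochondrial genes left out, a replicate block, leaving out each library, an adjusted p under 0.01, a minimum absolute log2 fold change of 1, and length of the longest transcript. The last was planned for levels and used for ratios after seeing the data. Counts of 31-base stretches shared between genes used GENCODE transcripts.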

Additional observations from a re-analysis of the deposited data

How the results depend on the processing

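Signs of all 10 genes were the same under each alternative run. The replicate block, used because labels repeat the numbers, gave 1235 genes called in place of 2565, 2 members (*Tgfbr1* and *Tgfbr3*) in place of 5, and 18 pathway list genes in place of 28. Equal numbers were not shown to pair. The block also ended the calls of *Nrros*, *Wwp1*, *Dab2*, *Id1*, *Fasl*, *Id2*, *E2f4*, *Fos*, *Foxo3*, *Crebbp* and *Cd8a* (adjusted p from 0.0597 to 0.105). An adjusted p under 0.01 gave 453 genes and 2 members, and a minimum absolute log2 fold change of 1 gave 674 genes and 0 members. With limma-voom 4 members passed and with no filter 6. With no filter, 1 of the 2 target genes passed. With 1 library left out, and so fewer samples, counts ran from 391 (without replicate 2 labelled *Pgam* ASO) to 3484 genes (without replicate 3 labelled scrambled ASO), from 1 to 5 members, from 6 to 42 list genes and from 0 to 1 target genes. The counts of all genes and of list genes thus moved both below and above those from all 6 libraries, while that of members did not rise above 5. The cause was not tested.

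Per kilobase of the longest transcript, levels in CPM with scrambled ASO were 101 for *Tgfb1*, 19.2 for *Tgfbr1*, 15.4 for *Tgfbr2*, 6.65 for *Tgfbr3*, 6.87 for *Smad2*, 9.19 for *Smad3*, 23.9 for *Smad4*, 10.01 for *Smad7* and 20.7 for *Skil*, lower because the divisor is longer.

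Signs turned for 5 genes that had not passed. Without single libraries, log2 fold changes ran from -0.16 to 0.029 for *Itgb1*, from -0.10 to 0.16 for *Furin*, from -0.091 to 0.0076 for *Smad1*, from -0.040 to 0.16 for *Junb* and from -0.56 to 0.040 for *Gzmb*. For the 51 genes that the rule takes, 630 comparisons with an alternative gave the same direction and side of the threshold, 67 lost the call, 10 gained it and 7 turned sign. For 9 genes that passed and were named after their values were seen, 90 gave the same and 36 lost the call; *Map2k3*, also named so, passed with DESeq2 and is not in these counts. Summing counts with genes that share at least 10% of a member's 31-base stretches gave no value, since no member shares that much.

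With 3 libraries a group and neither target transcript past the threshold, these values compare labels. Counts come from bulk RNA, and protein and phosphorylation of SMADs were not analysed here. Calls near the threshold (*Smad4*, *Smad7*, *Tgfbr2*) were lost with single libraries left out, and the number of genes called in the whole table changed as well.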
